A study of Mus musculus with 34 samples.

Results

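The 38 genes described here encode lysosomal enzymes, their cofactors and lysosomal membrane proteins, with Tfeb, a transcription factor of lysosomal genes. They were taken by symbol from the 23951 genes listed for every RNA-seq library, and all 38 were found. By role they fall into 10 membrane proteins, 9 genes of sphingolipid and glycolipid breakdown, 7 of glycosaminoglycan breakdown, 5 of glycoprotein and glycogen breakdown, 6 proteases, lipases and other soluble proteins, and Tfeb.

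The study asked how loss of the histone deacetylase HDAC1 in the brain and an amyloid model of Alzheimer's disease alter gene expression in aged mice. Hippocampal RNA was profiled in 4 control mice, which carry floxed Hdac1 alleles without Cre (Hdac1f/f), and 5 Hdac1 cKO mice, which carry Nestin-Cre on those alleles. It was also profiled in 6 5XFAD mice on the Hdac1f/f background, whose transgenes, which include mutated human APP, are driven by the Thy1 promoter, and in 5 compound (Hdac1 cKO; 5XFAD) mice with Nestin-Cre and the transgenes. Nuclei positive for GFAP, an astrocyte protein, were sorted from cortical tissue, and libraries of 3 control and 4 Hdac1 cKO animals were analysed here. The floxed Hdac1 alleles were common to all 6 groups. Nestin-Cre removes HDAC1 from neurons and astrocytes, and microglia keep it. The hippocampal control and Hdac1 cKO mice were 13 to 14 months old. The 5XFAD and compound mice were 13 months old, and no age is listed with the nuclei samples. Whether this difference in listed age bears on the comparisons was not tested. Each library came from a separate mouse. The groups with and without the transgenes were deposited as separate sets of samples, and whether their libraries were prepared together is not given in the sources used here.

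Lysosomes are acidic organelles in which hydrolases break down proteins, lipids, glycans and nucleic acids delivered by endocytosis, phagocytosis and autophagy. Most soluble hydrolases reach them through the mannose 6-phosphate pathway, while glycosylated membrane proteins such as LAMP1 and LAMP2 line the organelle. TFEB and its relatives bind E-box sequences of the CLEAR type in many lysosomal promoters, and in the brain microglia are especially rich in lysosomal proteins.

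Values are FPKM, sequenced fragments scaled to transcript length and library size. Hdac1 was 5.91 to 10.7 FPKM in control and 6.10 to 9.64 in 5XFAD hippocampi, against 2.36 to 3.03 in Hdac1 cKO and 1.15 to 2.52 in compound hippocampi. Thy1, whose promoter drives the transgenes, was 303 to 388 FPKM without them and 1563 to 2358 FPKM with them, so both alleles matched the labels in all 20 libraries. In the sorted nuclei, Hdac1 overlapped between control (9.91 to 22.3) and Hdac1 cKO (5.80 to 11.5). The files hold no read counts, and steps between low values put sequencing depth at 0.754 to 2.35 times that of control mouse 1 in the hippocampal libraries and at 0.869 to 1.26 times that of its own control mouse 1 in the nuclei. Ttr, a transcript of choroid plexus epithelium, ranged from 53.8 to 20146 FPKM: control mice 2 to 4, 4 of 6 5XFAD mice and compound mouse 1 lay above 2000 FPKM, and all 5 Hdac1 cKO mice lay below it.

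Each of the 38 genes was above 0 in all 27 libraries. In control hippocampus 21 of them averaged 10 FPKM or more and 3 averaged under 1. Cd63, a tetraspanin of late endosomes and lysosomes, had the highest mean at 387 ± 69 FPKM (SD, n = 4). It was followed by Psap, the precursor of the saposins that present sphingolipids to hydrolases, at 249 ± 33, and by Lamp1 at 94.2 ± 6.0. The lowest were Tfeb at 0.792 ± 0.24, Sgsh, the sulfamidase of heparan sulfate breakdown, at 0.577 ± 0.26, and Manba, the beta-mannosidase, at 0.570 ± 0.10. FPKM is scaled to transcript length, whereas these hippocampal libraries sample 3′ ends, so the order of levels between genes is approximate.

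Upstream sequences are shown for the 4 genes that were higher in every comparison of mice with and without the 5XFAD transgenes, and for Lamp1, whose upstream region holds the most copies of the core E-box CACGTG among the members. Each runs 5′ to 3′ over the 250 bases before the start site, from RefSeq on GRCm38.p6: chr11:69666171-69666420 on the minus strand for Cd68, chr4:130913066-130913315 on the plus strand for Laptm5, chr9:59539290-59539539 on the plus strand for Hexa, chr11:102430257-102430506 on the plus strand for Grn and chr8:13158911-13159160 on the plus strand for Lamp1. Capitals mark CACGTG.
Cd68: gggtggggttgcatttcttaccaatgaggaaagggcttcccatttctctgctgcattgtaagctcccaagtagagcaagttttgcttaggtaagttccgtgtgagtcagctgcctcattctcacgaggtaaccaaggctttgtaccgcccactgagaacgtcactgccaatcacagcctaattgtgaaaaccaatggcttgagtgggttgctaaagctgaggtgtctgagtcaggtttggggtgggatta
Laptm5: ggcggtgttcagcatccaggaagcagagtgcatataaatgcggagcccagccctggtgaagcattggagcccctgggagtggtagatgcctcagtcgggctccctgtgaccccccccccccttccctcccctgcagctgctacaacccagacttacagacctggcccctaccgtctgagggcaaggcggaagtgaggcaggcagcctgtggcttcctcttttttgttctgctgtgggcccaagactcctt
Hexa: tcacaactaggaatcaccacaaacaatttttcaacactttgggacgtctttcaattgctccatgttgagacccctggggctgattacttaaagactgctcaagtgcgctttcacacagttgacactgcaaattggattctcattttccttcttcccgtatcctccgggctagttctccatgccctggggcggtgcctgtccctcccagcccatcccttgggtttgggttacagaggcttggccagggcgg
Grn: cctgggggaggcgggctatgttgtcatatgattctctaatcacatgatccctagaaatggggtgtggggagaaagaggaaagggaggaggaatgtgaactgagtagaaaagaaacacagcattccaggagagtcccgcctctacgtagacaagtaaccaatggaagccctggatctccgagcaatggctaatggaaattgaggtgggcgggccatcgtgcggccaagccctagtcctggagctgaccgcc
Lamp1: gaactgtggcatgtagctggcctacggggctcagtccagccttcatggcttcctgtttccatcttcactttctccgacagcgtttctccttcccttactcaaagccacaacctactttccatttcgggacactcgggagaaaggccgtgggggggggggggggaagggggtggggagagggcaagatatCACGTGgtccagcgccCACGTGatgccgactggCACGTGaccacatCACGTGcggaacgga

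Lamp1 held 4 copies of CACGTG, and the other 4 sequences held none. The search covered the 250 bases before and 50 after the start site of 35 of the 38 genes that had an entry. Members with several start sites, such as Cln3 and Lgmn, were counted if any of their windows held the motif. CACGTG reads the same on both strands, and it was in 10 of the 35 promoters (28.6%), against 9.20% of 16745 genes in the files with an entry. Among the 10622 of these genes that were tested in 5XFAD against control mice, the share was 11.4%. The longer GTCACGTG, searched on both strands and containing CACGTG, was in 9 of 35 (25.7%), against 3.29% of all genes with an entry and 4.59% of those tested. The 10 genes were Lamp1, Mcoln1, Cln3, Gla, Glb1, Arsa, Naglu, Sgsh, Gaa and Lgmn. None of them was among the 8 members that were higher in any comparison of mice with and without the 5XFAD transgenes. All 8 of those members had an entry. The purine-rich GAGGAAGT, on both strands, was in 2 of 35 (5.71%), Gusb and Gla, against 3.60% of all genes with an entry and 3.42% of those tested. A match is a description of the letters in these windows and not a binding site.

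The comparison of 5XFAD with control mice asked which lysosomal genes differ in the amyloid model when Hdac1 is intact. Cd68, Laptm5, Hexa and Grn rose, 3.92-, 3.01-, 1.98- and 1.93-fold in mean FPKM, and no member fell. These were 4 of 38 members at an adjusted p under 0.05 (limma, Benjamini-Hochberg over 14402 genes), beside 0.667% of all genes that rose. Values of the remaining members lay closer to control, and the median log2 fold change of the 38 was 0.19, against -0.01 over all genes tested.

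Cd68 encodes macrosialin, a heavily glycosylated membrane protein of macrophage and microglial lysosomes. It was 29.2, 20.9, 24.3 and 12.3 FPKM in the 4 control mice. In the 6 5XFAD mice it ranged from 55.7 to 112 FPKM with a median of 86.5. The lowest 5XFAD mouse was above the highest control mouse, and the log2 fold change was 1.94 ± 0.24 (SE; limma adjusted p = 0.0018).

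Laptm5, a lysosomal membrane protein of leukocytes and microglia, was 9.22, 10.8, 13.0 and 14.1 FPKM in the control mice and 27.9 to 44.9 FPKM, median 34.6, in the 5XFAD mice. The groups did not overlap, and the log2 fold change was 1.51 ± 0.15 (limma adjusted p = 0.00015). Hexa, which encodes the alpha subunit of beta-hexosaminidase that cleaves GM2 ganglioside, was 17.2, 25.2, 26.7 and 24.5 FPKM in control mice and 42.2 to 51.6, median 46.4, in 5XFAD mice. Its groups were also apart, with a log2 fold change of 0.97 ± 0.12 (limma adjusted p = 0.00098). Grn encodes progranulin, a secreted and lysosomal glycoprotein. It was 17.0, 16.9, 24.9 and 14.9 FPKM in control mice and 28.6 to 42.1, median 35.8, in 5XFAD mice, again with no overlap (0.93 ± 0.14, limma adjusted p = 0.0058). Without the libraries under 2000 FPKM of Ttr, Grn was no longer called (0.86, limma adjusted p = 0.11).

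Under the study's own threshold, 1.5-fold or more at an unadjusted p under 0.05, with the fold taken here on FPKM + 1, 5 members were higher (1.72% of all genes), the fifth being Man2b1, the lysosomal alpha-mannosidase (log2 fold change 0.72 ± 0.20, limma adjusted p = 0.18). In 6 members the groups did not overlap with 5XFAD higher (1.92% of all genes). The 2 further ones were Lamp1, at 88.6 to 100 FPKM in control and 109 to 124 in 5XFAD mice (0.32 ± 0.08, limma adjusted p = 0.12), and Arsa, the arylsulfatase that degrades sulfatide (0.44 ± 0.16, limma adjusted p = 0.34). Unadjusted p was under 0.05 for 12 members, all with higher values in 5XFAD mice, beside 5.25% of all genes that were higher at that p. Among them were Gusb, the beta-glucuronidase (0.55 ± 0.18), Scarb2, the receptor that carries glucocerebrosidase to lysosomes (0.51 ± 0.14), and Cln3, a multipass membrane protein (0.46 ± 0.17). In mean FPKM, without the added 1, Gusb and Scarb2 were 1.58- and 1.5-fold higher and would reach the fold part of the same threshold. Their p without the added 1 is not given here.

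**Figure D1:**
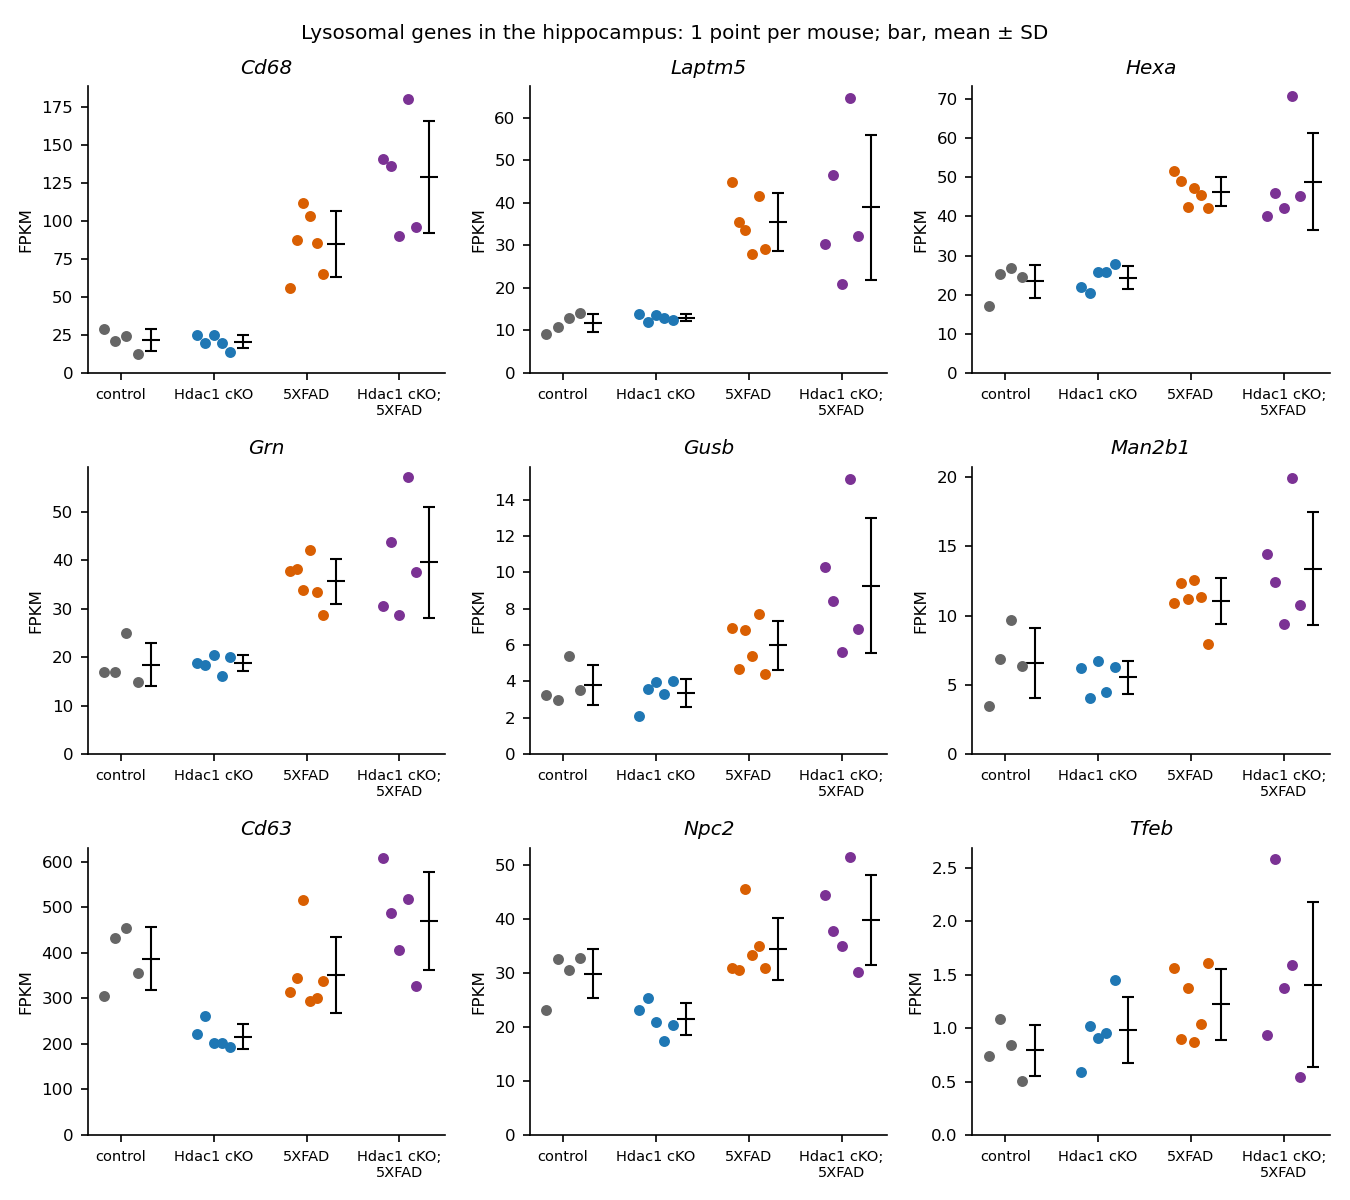
FPKM of 9 lysosomal genes in each hippocampal library, by group, with 1 point per mouse and the mean ± SD beside the points; each linear y axis starts at 0. Cd68, Laptm5, Hexa and Grn separate the mice with the 5XFAD transgenes from those without, whereas Cd63 is lowest in the 5 Hdac1 cKO mice at 192 to 262 FPKM.

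The comparison of compound with Hdac1 cKO mice asked the same of the transgenes in mice lacking neuronal and astrocytic HDAC1, and it shares no mouse with the first. Cd68, Laptm5, Gusb, Man2b1, Cd63, Grn, Hexa and Npc2 rose, from 6.26-fold for Cd68 to 1.85-fold for Npc2 in mean FPKM, and no member fell. These were 8 of the 37 members tested (limma, adjusted over 14195 genes), beside 1.42% of all genes. In all 8 the groups did not overlap, as in 2.44% of all genes, and 10 members passed the fold and unadjusted p rule, as did 2.94% of all genes. The median log2 fold change of the members was 0.23, against -0.01 over all genes.

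Cd68 was 24.7, 19.7, 24.7, 19.6 and 14.1 FPKM in Hdac1 cKO mice and 141, 136, 90.0, 180 and 96.2 in compound mice. Compound mouse 4 was highest, and the lowest compound mouse was still above every Hdac1 cKO mouse (log2 fold change 2.57 ± 0.20, limma adjusted p = 3.2e-05). Laptm5 was 12.1 to 13.9 FPKM in Hdac1 cKO mice and 30.3, 46.6, 21.0, 64.7 and 32.2 in compound mice (1.41 ± 0.23, limma adjusted p = 0.0084). Hexa was 20.5 to 27.8 FPKM against 40.1, 46.1, 42.1, 70.6 and 45.3 (0.95 ± 0.14, limma adjusted p = 0.0032). Grn was 16.2 to 20.5 FPKM against 30.5, 43.9, 28.7, 57.1 and 37.7 (1.00 ± 0.16, limma adjusted p = 0.0050). For Laptm5, Hexa and Grn, compound mouse 4 again had the highest value.

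Gusb, which removes glucuronic acid from glycosaminoglycans, was 2.08, 3.56, 3.95, 3.28 and 3.99 FPKM in Hdac1 cKO mice and 10.3, 8.43, 5.60, 15.1 and 6.87 in compound mice (1.18 ± 0.22, limma adjusted p = 0.014). Man2b1, which trims mannose from glycoproteins, was 4.08 to 6.69 FPKM against 14.4, 12.5, 9.38, 19.9 and 10.8 (1.11 ± 0.19, limma adjusted p = 0.0070). Both were at low FPKM and highest in compound mouse 4.

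Cd63 was 221, 262, 202, 201 and 192 FPKM in Hdac1 cKO mice and 609, 488, 406, 518 and 327 in compound mice, a log2 fold change of 1.10 ± 0.15 (limma adjusted p = 0.0014). Npc2, the soluble partner of NPC1 in cholesterol export from lysosomes, was 23.1, 25.3, 20.9, 17.3 and 20.4 FPKM against 44.4, 37.6, 34.9, 51.4 and 30.2 (0.85 ± 0.14, limma adjusted p = 0.0066). For both genes every compound mouse was above every Hdac1 cKO mouse. Lamp2, which lines lysosomes and serves chaperone-mediated autophagy, overlapped in 1 compound mouse at 19.9 FPKM (0.74 ± 0.18, limma adjusted p = 0.064). Naglu, an enzyme of heparan sulfate breakdown, overlapped as well (0.70 ± 0.20, limma adjusted p = 0.14). These 2 completed the 10 members under the fold rule.

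Against control mice, which the first comparison also used, compound mice had higher Cd68 (2.53 ± 0.26, limma adjusted p = 0.0018), Laptm5 (1.56 ± 0.28, 0.036), Hexa (1.02 ± 0.17, 0.021) and Grn (1.04 ± 0.20, 0.044). These were 4 of 37 members, beside 0.627% of 14348 genes. The fold rule added Gusb (1.05 ± 0.25, limma adjusted p = 0.095) and Man2b1 (0.95 ± 0.25, limma adjusted p = 0.17), making 6 members beside 2.22% of all genes. Groups did not overlap for 7 members, beside 2.75% of all genes. The calls in this comparison depended on single mice: without compound mouse 2, or without control mouse 2 or 4, Cd68 alone was called, and without control mouse 1 or compound mouse 5 the called members were Cd68 and Hexa.

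**Figure D2:**
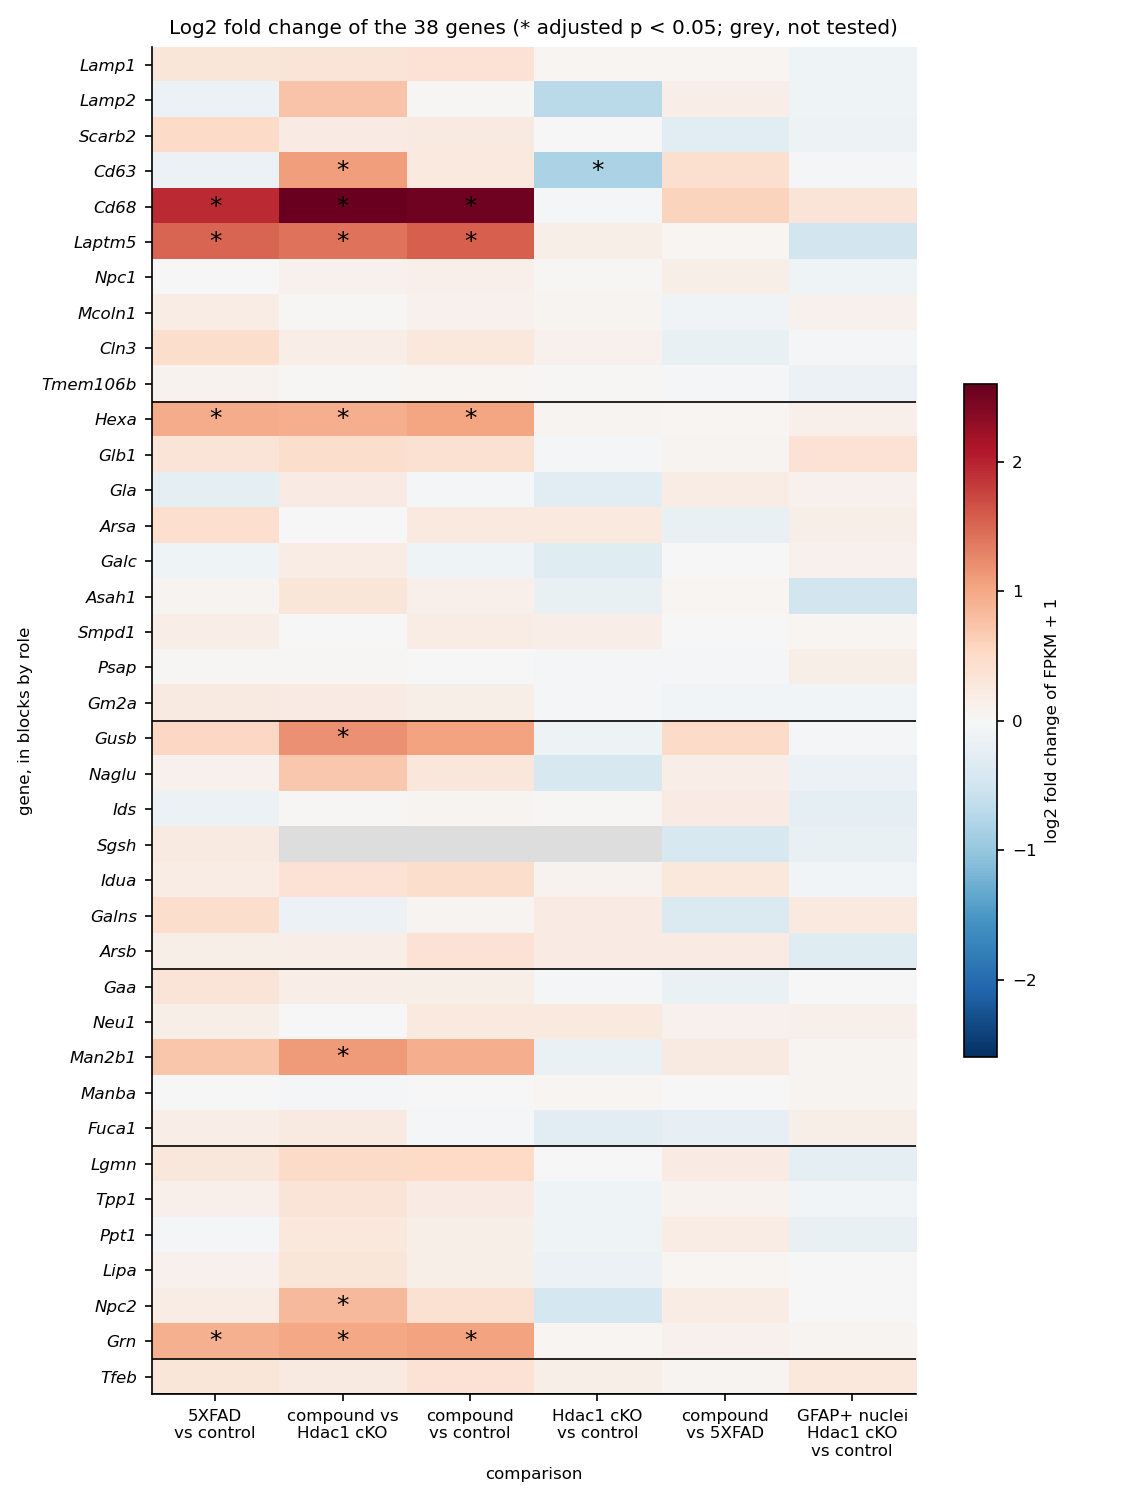
Log2 fold change of FPKM + 1 for the 38 genes (vertical axis, in blocks by role) in 6 comparisons (horizontal axis), with red for higher and blue for lower values in the first-named group. Stars mark an adjusted p under 0.05: 4, 8 and 4 genes in the 3 leftmost columns, Cd63 in the fourth, and none in the other 2.

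Set side by side, 28 of the 37 members tested in both comparisons of mice with and without the transgenes were above 0 in each, and 1 was below 0 in each. The same sign was found for 78.4% of these members and for 50.8% of the 13924 genes tested in both. All 4 members called with the Hdac1 gene not deleted were among the 8 called with it deleted. That is 4 of 4 in the first list and 4 of 8 in the second. Across the 37 genes Pearson's r was 0.73, a description over genes, which are not independent replicates and which share the libraries of each comparison.

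**Figure D3:**
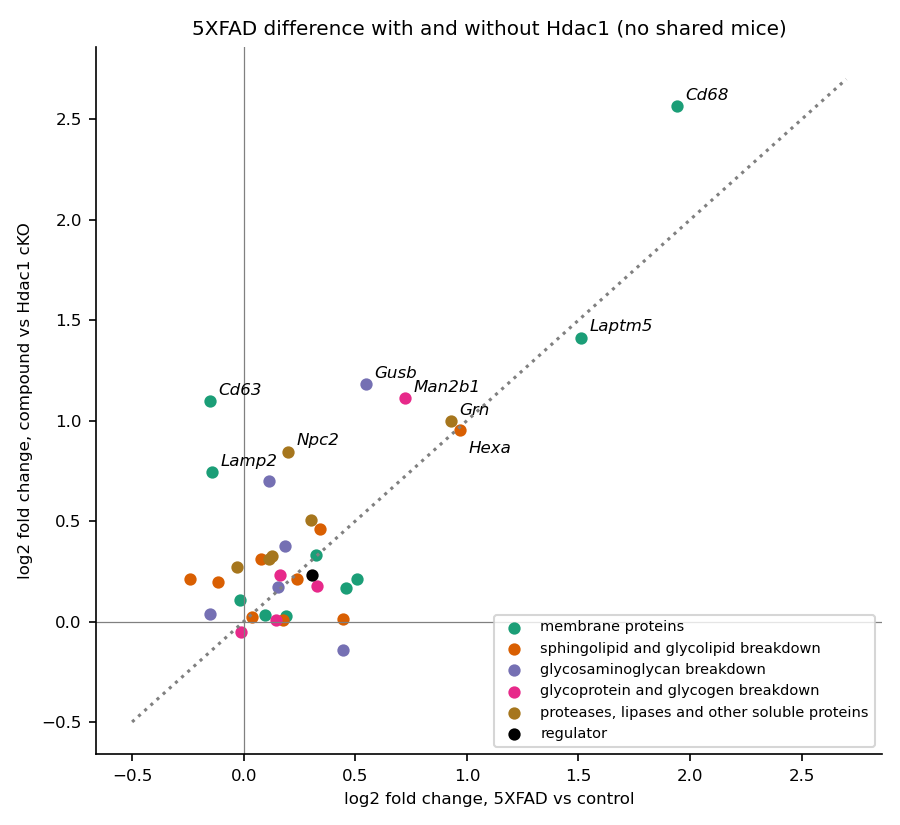
Log2 fold change of the 37 genes tested in both, for 5XFAD against control (x axis) and compound against Hdac1 cKO (y axis), coloured by role; the dotted line marks equal values. Cd68 and Laptm5 lie farthest from 0 on both axes, and Cd63 lies at -0.15 on the x axis and 1.10 on the y axis.

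Whether the effect of the transgenes differed with Hdac1 was tested as an interaction over all 20 mice. No member passed, as no gene did (0.0% of 14389). At an unadjusted p under 0.05 there were 6 members, all with an interaction above 0, beside 8.97% of all genes in either direction. In 4 of them the value was below 0 in 5XFAD against control mice and above 0 in compound against Hdac1 cKO mice. These were Cd63 (-0.15 ± 0.16 and 1.10 ± 0.15), Lamp2 (-0.14 ± 0.17 and 0.74 ± 0.18), Gla (-0.24 ± 0.14 and 0.21 ± 0.16) and Ppt1 (-0.03 ± 0.09 and 0.27 ± 0.10), and of these 8 values only that of Cd63 in compound against Hdac1 cKO mice passed. Cd63 had the largest interaction (1.25 ± 0.23 on the log2 scale, unadjusted p = 2.4e-05, limma adjusted p = 0.23), followed by Lamp2 (0.89 ± 0.26, adjusted p = 0.34) and Npc2 (0.65 ± 0.20, adjusted p = 0.38). Markers of some other cells had interactions of the same sign: all 6 choroid plexus markers were above 0, with a median of 1.92 and none at an unadjusted p under 0.05, and so were all 4 ependymal markers, with a median of 0.76 and 3 at that p. All 9 markers of disease-associated microglia were above 0 too, with a median of 0.47 and 1 at that p. Of 11 microglial markers 8 were above 0, while all 5 endothelial markers were below 0. Of 8 astrocyte markers 7 were above 0, with a median of 0.06 and 2 at that p. Above 0 too were 6 of 8 neuronal, 4 of 6 oligodendrocyte and 2 of 3 oligodendrocyte precursor markers. Both border macrophage markers tested were above 0, as were 50.9% of all genes. The part of these cells in the interactions of the members was not tested. Without 5XFAD mouse 3 or without compound mouse 5 the interaction of Cd63 passed, at limma adjusted p = 0.017 and 0.044.

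The comparison of Hdac1 cKO with control mice asked what loss of Hdac1 alone does. Cd63 fell to 0.557 of its control mean, and no member rose. It was 305, 432, 454 and 357 FPKM in control mice and 221, 262, 202, 201 and 192 in Hdac1 cKO mice. Every Hdac1 cKO mouse was below every control mouse (-0.83 ± 0.13, limma adjusted p = 0.032). This was 1 of 37 members, beside 0.147% of 14265 genes that fell, and the members' median was 0.02. The call was lost without any 1 of control mice 2 to 4 or Hdac1 cKO mice 1, 3, 4 and 5, at limma adjusted p from 0.073 to 0.099, while the log2 fold change stayed between -0.94 and -0.75 in all 9 repeats. Without control mouse 1, Lamp2 and Npc2 were called too (limma adjusted p = 0.0010 and 0.036), while the calls over all genes went from 22 to 290.

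Lamp2 was 22.9, 37.1, 33.8 and 34.0 FPKM in control mice and 20.1, 17.0, 18.2, 21.8 and 17.5 in Hdac1 cKO mice. The groups did not overlap, and the difference was -0.71 ± 0.14 (limma adjusted p = 0.078). Cd63 and Lamp2 were the 2 members whose groups did not overlap with Hdac1 cKO lower, beside 2.15% of all genes, and the 2 that passed the fold rule, beside 2.87%. Npc2 was 23.2, 32.6, 30.6 and 32.8 FPKM in control mice and overlapped with Hdac1 cKO (-0.45 ± 0.13, limma adjusted p = 0.21).

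These 3 genes were read beside Ttr, since the control libraries above 2000 FPKM of Ttr have no counterpart among the Hdac1 cKO libraries. The 6 choroid plexus markers summed to 592 to 20483 FPKM in control and 60.9 to 1634 FPKM in Hdac1 cKO mice, and all 6 were lower by 1.5-fold or more at an unadjusted p under 0.05 (median log2 fold change -3.44), although none passed at an adjusted p under 0.05 (0.17 to 0.30). The 4 ependymal markers summed to 92.1 to 182 FPKM against 49.6 to 78.6 FPKM. All 4 were lower under the same threshold, with no overlap between the groups for 3 of them, and Ccdc153, a marker of ciliated ependymal cells, fell (-0.98 ± 0.16, limma adjusted p = 0.046). Control mouse 1, the only control with low Ttr (576 FPKM), had the lowest control values of all 3 genes. Its Cd63 and Lamp2 were still above every Hdac1 cKO mouse, and its Npc2 was within their range. In 5XFAD mice, the 2 with low Ttr were below the 4 others in Cd63 (293 to 300.2 against 313 to 515 FPKM) and Lamp2 (19.7 to 25.7 against 28.1 to 37.6 FPKM), but not in Npc2 (33.2 to 34.9 against 30.5 to 45.5 FPKM). Compound mouse 1, the only compound mouse with high Ttr, had the highest Cd63 and Lamp2 of its group, at 609 and 42.2 FPKM. In compound mice with low Ttr, Cd63 was 327 to 518 FPKM, against 192 to 262 in the 5 Hdac1 cKO mice, all of low Ttr, and without compound mouse 1 all 8 members called above were still called. The part of choroid plexus and ependymal RNA in the difference between Hdac1 cKO and control mice was not tested, and a single control library had low Ttr.

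**Figure D4:**
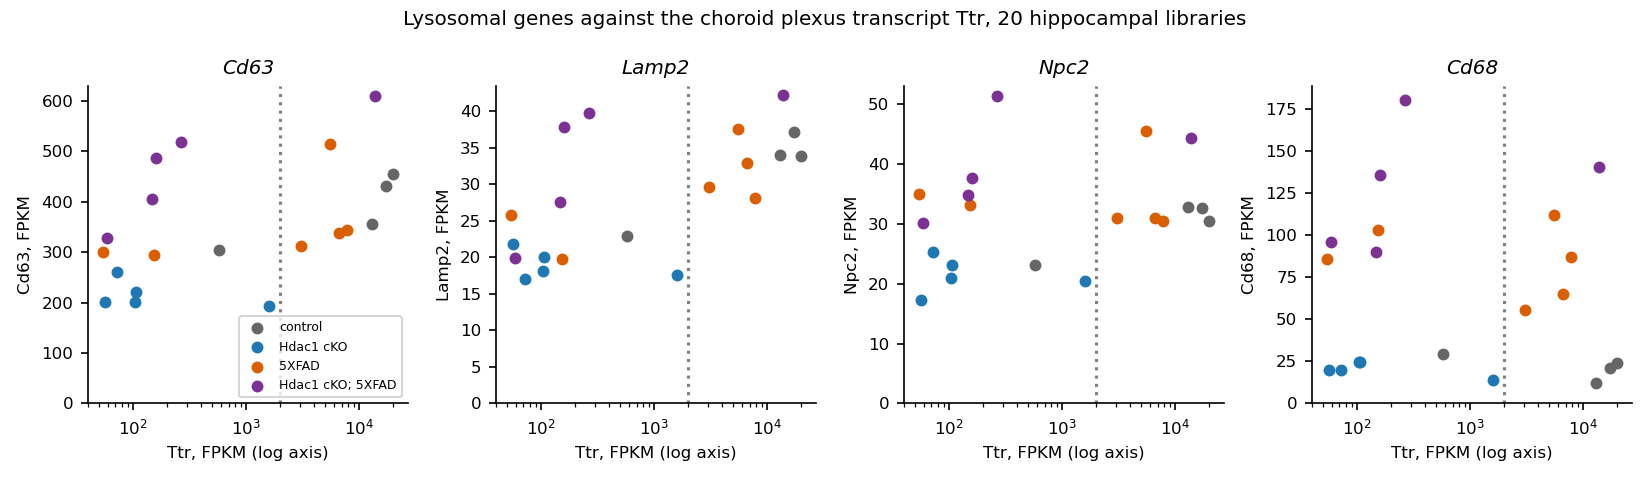
FPKM of Cd63, Lamp2, Npc2 and Cd68 (y axes, linear from 0) against FPKM of Ttr (x axes, log scale) in the 20 hippocampal libraries, coloured by group, with a dotted line at 2000 FPKM. The 5 Hdac1 cKO mice lie left of the line with Cd63 between 192 and 262 FPKM, and 3 of the 4 control mice lie right of it.

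Compound and 5XFAD mice were compared to ask what Hdac1 loss adds to the amyloid model. None of the 38 members passed (limma, 14326 genes tested, 0.00698% called), and 4 had an unadjusted p under 0.05, beside 6.61% of all genes. Cd68 (0.59 ± 0.21, limma adjusted p = 0.73), Gusb (0.51 ± 0.21, 0.73) and Cd63 (0.42 ± 0.17, 0.73) were higher in compound mice in value, and Sgsh was lower (-0.42 ± 0.19, 0.74). The groups overlapped in all 4. Cd68 was the 1 member to pass the fold rule on FPKM + 1, beside 1.28% of all genes. In mean FPKM, Gusb was 1.55-fold higher and Sgsh was at 0.433 of its 5XFAD mean. Both would reach the fold part of the threshold without the added 1, and their p without it is not given here. Hexa and Grn differed by 0.05 and 0.11, and the intervals of 2 SE on either side ran from -0.21 to 0.31 and from -0.21 to 0.43.

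Members without a call in any comparison were 30 of 38. The values below are those of the hippocampal groups. Psap varied little between group means, from 241 to 254 FPKM, as did Tmem106b, a lysosomal membrane protein, from 16.6 to 17.8. Among the glycosaminoglycan enzymes, Ids ranged from 45.5 ± 5.6 FPKM in 5XFAD to 53.0 ± 5.3 in compound mice. Gaa, the glycogen-degrading alpha-glucosidase, ranged from 47.1 ± 8.0 in Hdac1 cKO to 60.2 ± 8.7 in 5XFAD mice. Sgsh, at 0.376 to 0.867 FPKM in the group means, was too low to be tested in 3 comparisons. Tfeb was 0.505 to 1.08 FPKM in control mice, 0.591 to 1.45 in Hdac1 cKO, 0.868 to 1.61 in 5XFAD and 0.547 to 2.58 in compound mice. These ranges overlapped, and the log2 differences of Tfeb from control were 0.14 ± 0.18, 0.31 ± 0.17 and 0.38 ± 0.24 in that order (limma adjusted p = 0.81, 0.56 and 0.63).

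A further 84 lysosomal genes outside the 38 were read for context. Among 11 cathepsins, the lysosomal proteases, 5 rose in 5XFAD against control mice, 8 in compound against Hdac1 cKO mice and 4 in compound against control mice, beside 0.667%, 1.42% and 0.627% of all genes that rose. The protease gene Ctss rose by 1.25 ± 0.10, 1.75 ± 0.17 and 1.67 ± 0.19 on the log2 scale, and Ctsd by 1.29 ± 0.13, 1.77 ± 0.18 and 1.56 ± 0.24. Among 12 further hydrolases and cofactors, Aga, an enzyme of glycoprotein breakdown, fell in Hdac1 cKO against control mice (-0.83 ± 0.13, limma adjusted p = 0.037). No gene passed among 19 V-ATPase subunits, which acidify the lysosome, 16 further membrane proteins, 17 sorting factors or 9 regulators. Of the 59 of these 61 genes that were tested, 7, 2 and 7 had an unadjusted p under 0.05 in the 3 comparisons, beside 10.7%, 10.3% and 10.5% of all genes.

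Part of the microglial markers moved with the members that rose. The 11 microglial markers summed to 196 to 272 FPKM in control and 232 to 253 in Hdac1 cKO mice. The sums were 470 to 634 FPKM in 5XFAD and 502 to 1033 in compound mice. C1qb alone averaged 78.7 FPKM in control and 203 in 5XFAD mice, whereas P2ry12 averaged 15.5 and 16.7. All 11 had a log2 fold change above 0 in each of the 3 comparisons. Of these, 6 rose each time, beside 0.667%, 1.42% and 0.627% of all genes that rose. Of 9 markers of disease-associated microglia, 6, 8 and 6 rose. Of 8 astrocyte markers, 1, 3 and 2 rose. Gfap was among them each time (1.90 ± 0.12, 1.97 ± 0.17 and 2.10 ± 0.18), while the list's medians were 0.14, 0.26 and 0.30. In bulk tissue, fewer cells of a type and less RNA per cell cannot be told apart, and neither can more cells and more RNA per cell. The part of microglial number in the rise of the lysosomal genes was not tested. In Hdac1 cKO against control mice no microglial marker passed. In compound against 5XFAD mice no marker of the 2 microglial lists passed. All 9 markers of disease-associated microglia were above 0 there, with a median log2 fold change of 0.56. Of these, 4 had an unadjusted p under 0.05, beside 6.61% of all genes. Of the 11 microglial markers 10 were above 0, with a median of 0.27. Their part in the higher Cd68 values of compound mice was not tested.

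The GFAP+ nuclei asked about loss of Hdac1 in astrocyte-enriched material. Their 8 astrocyte markers summed to 2757 to 3362 FPKM, against 203 to 299 for 8 neuronal, 450 to 1224 for 6 oligodendrocyte and 44.0 to 154 for 11 microglial markers, so astrocyte transcripts led but oligodendrocyte transcripts were present. No member passed the test among 38 (limma, 15070 genes, 0.0133% called), and none passed the fold rule, beside 2.58% of all genes. A single unadjusted p was under 0.05, beside 4.7% of all genes. It belonged to Asah1, the acid ceramidase, at 44.1, 35.1 and 30.8 FPKM in control and 31.7, 18.8, 30.1 and 24.7 in Hdac1 cKO nuclei (-0.47 ± 0.20, limma adjusted p = 0.98). The members' median log2 fold change was -0.02.

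Cd63, which fell in Hdac1 cKO hippocampus, was 493.4, 578 and 410 FPKM in control nuclei and 481, 349, 523 and 550 in Hdac1 cKO nuclei (-0.06 ± 0.19, limma adjusted p = 0.996). Lamp2 overlapped as well, at 27.6 to 49.6 and 29.2 to 44.3 FPKM. The difference between hippocampus and nuclei was not tested, as region, compartment and library kit all differed. In control nuclei 24 of the 38 genes averaged 10 FPKM or more. Tfeb averaged 13.4 ± 3.8 FPKM there and 0.792 ± 0.24 in control hippocampus, Npc1, the cholesterol exporter, 39.7 ± 0.66 and 4.87 ± 0.48, and Ids 7.59 ± 2.8 and 50.5 ± 5.7. Cd68 was 3.45 to 3.60 FPKM in control and 3.54 to 7.94 in Hdac1 cKO nuclei.

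**Figure D5:**
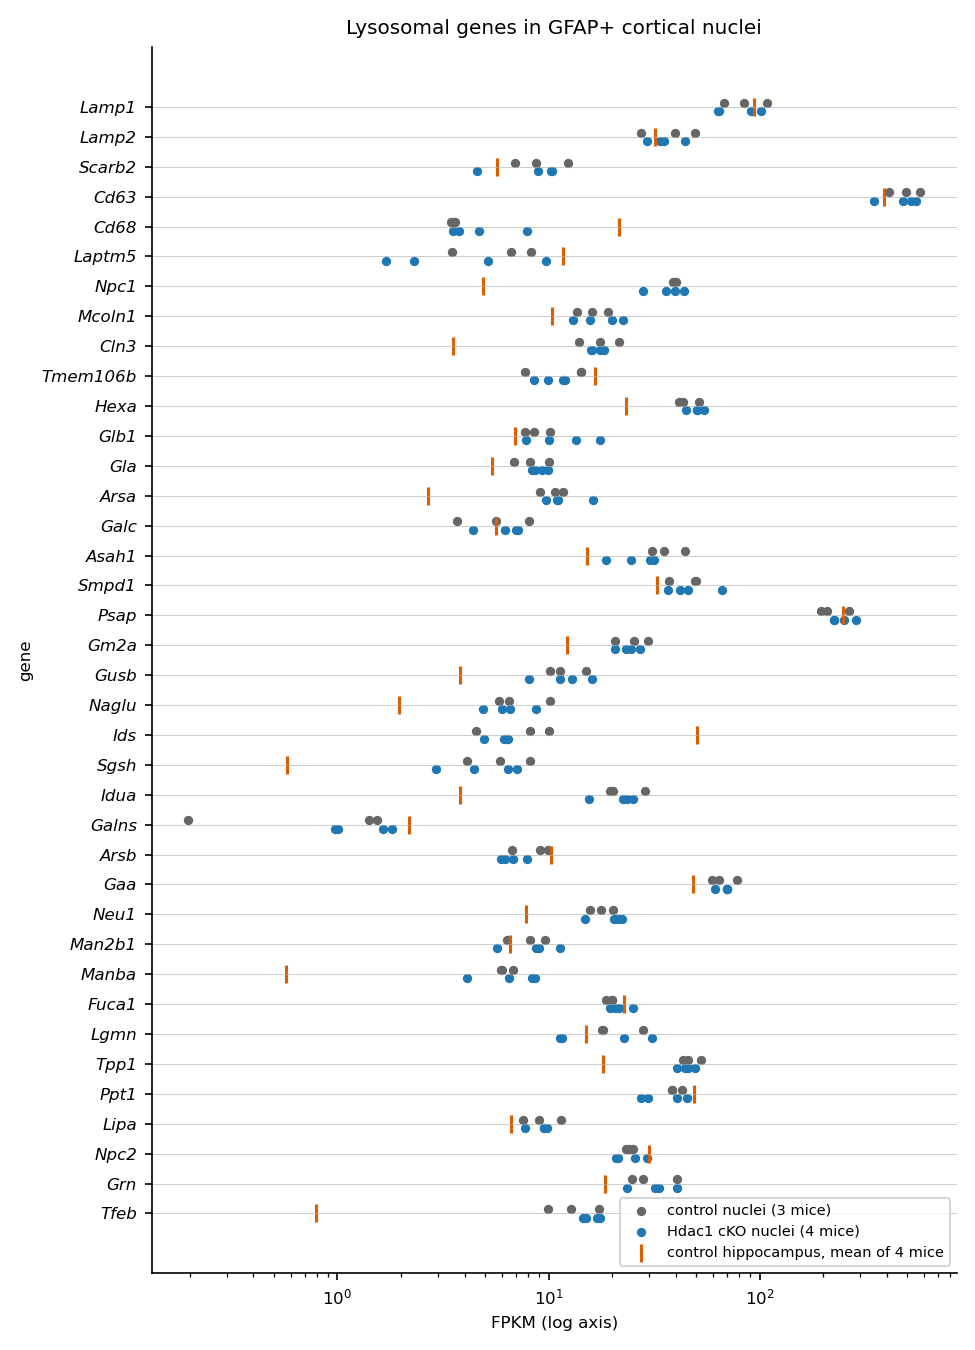
FPKM (x axis, log scale) of the 38 genes (y axis) in GFAP+ cortical nuclei, with 1 point per mouse for 3 control and 4 Hdac1 cKO mice; the vertical ticks give the control hippocampus mean for reference, from another library type. For Cd63 the nuclei of control mice lie between 410 and 578 FPKM and those of Hdac1 cKO mice between 349 and 550 FPKM.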

How the data were processed

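RNA-seq of 20 hippocampal and 7 GFAP+ nuclei libraries was analysed. Another 7 listed samples (6 of ChIP-seq and control 2 of the nuclei) were not used here. The values deposited by the authors are FPKM, 1 per gene and mouse. Hippocampal reads came from 3′ Digital Gene Expression libraries and were aligned with TopHat, with abundances from Cufflinks 2.0.0 and UCSC mm9 annotation, as the study's methods give it. Nuclei were sorted for GFAP and prepared with SMART-Seq v4, and their alignment is not given in the sources used here. Division by transcript length is a constant per gene that cancels in a ratio of mean FPKM, but not once 1 is added. It also shifts 3′ libraries against the low-value filter. No read counts were given, so no count model or counting interval was used.

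Genes averaging 0.5 FPKM or more in a comparison were tested on log2(FPKM + 1) with limma 3.58.1 (R 4.3.3, mean-variance trend and robust moderation), two-sided, with Benjamini-Hochberg adjustment over all genes tested and a threshold of 0.05. Only the groups compared entered a fit, and the interaction used all 4 hippocampal groups. The pseudocount of 1 makes fold changes understate those of low genes. Per-sample values are given for members called in any pairwise comparison and for Tfeb; Lamp2, Naglu, Lamp1, Asah1 and other single genes were named after their values were seen. Alternatives were a pseudocount of 0.1, no filter or 1 FPKM, quantile normalization, median scaling, limma without trend and robust moderation, all 4 groups in 1 fit, the replicate number as a block, and leaving out each mouse; leaving out libraries by Ttr (2000 FPKM) was added after seeing the data. In data simulated from the same libraries with 200 genes changed by 1.5 on the log2 scale, 95% were recovered for 5XFAD against control and 79.5% for the nuclei. The changed genes were drawn without those of low level, and smaller changes were not simulated. These shares therefore do not give the recovery of low genes or of smaller differences, such as those of the members in the nuclei (-0.47 to 0.38). The members and gene lists were chosen with earlier results of these data known. The result of 1 gene among the further hydrolases is not reported here. RefSeq promoters (GRCm38.p6) were searched for motifs without converting coordinates. Figures used matplotlib 3.10.9.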

Additional observations from a re-analysis of the deposited data

Results flagged for a closer look

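In 4 cases a single mouse stood apart from the rest of its group by Dixon's test, among 50 sets of group values checked, of which chance gives about 1 in 20. Cd63 was 514.8 FPKM in 5XFAD mouse 3, and Npc2 was 45.5 FPKM in the same mouse, each far above the other 5 5XFAD mice. Hexa was 70.63 FPKM in compound mouse 4, above the other 4 compound mice. Man2b1 was 7.962 FPKM in 5XFAD mouse 6, below the other 5 5XFAD mice. Ttr was above 2000 FPKM in 5XFAD mouse 3, and compound mouse 4 also had the highest summed microglial markers of its group; whether either bears on these values was not tested.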

How the results depend on the processing

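The 4 members higher in 5XFAD than in control mice stayed at 4 with every mouse left out in turn, and fell to 1 with the replicate number as a block, where calls over all genes fell from 102 to 48; without libraries under 2000 FPKM of Ttr they were 3, Grn being lost. For compound against control mice the count of 4 became 1 in limma without trend and robust moderation and 0 with the block (over all genes 95 became 62 and 34), and ranged from 1 to 5 with 1 mouse left out. Cd63, the 1 member lower in Hdac1 cKO mice, was not called (0 members) without the low-value filter, without trend and robust moderation, with the block or with all 4 groups in 1 fit, and the count ranged from 0 to 3 with 1 mouse left out. Over all genes, 22 were called in that comparison, 0 with the block, and 2 to 290 with 1 mouse left out; the 3 members and the 290 genes are both without control mouse 1. The interaction count ranged from 0 to 1 in the same repeats. The count of 8 members higher in compound than in Hdac1 cKO mice ran from 8 to 10 over all alternatives; with the block Gusb was lost (limma adjusted p = 0.065) and Lamp2 gained (0.046). The cause of these changes was not tested. The share of all genes holding the motif was 3.29% for GTCACGTG. No called value changed direction. Replicate numbers belonged to different mice, and correlations of same-numbered libraries ran from -0.113 to 0.0935, so they do not pair the samples. Read counts behind low values such as those of Tfeb and Sgsh are unknown, and p-values measure the spread between these mice.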
